A study of Mus musculus with 6 samples.

Results

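Imprinted genes are expressed mainly from the copy inherited from 1 parent, and 47 of them were followed here among the 51912 gene identifiers of the count table. The members were chosen by name, as genes known from the literature to be imprinted in the mouse, and each of the 47 symbols matched exactly 1 Ensembl identifier. All libraries came from R1 mouse embryonic stem cells, an established line, which had been grown in 2iLIF (the cytokine LIF plus inhibitors of the kinases MEK and GSK3, a medium that holds the naive state) and then given FGF2 at 100 ng/ml in the serum-free medium N2B27. RNA was sequenced after 24 h or 48 h of FGF2, with 3 libraries for each time. Every library had received FGF2, and libraries of untreated cells were not analysed here, so a difference between the times combines longer exposure to FGF2 with longer time away from 2iLIF. Nothing in the labels states that the 3 replicates of a time came from separate cultures, so p-values measure the spread between these libraries, which may be technical.

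Imprinted genes lie mostly in clusters, in which a stretch of DNA methylated in only the egg or only the sperm (the imprinting control region) sets which copy is read. Within a cluster, some genes are read from the father's copy and others from the mother's, often with a long non-coding RNA on the opposite copy from the protein-coding genes. Zfp57 and Zfp445, zinc finger proteins that bind the methylated copy, recruit Trim28 and Setdb1 and help Dnmt1 to keep the mark, while Dnmt3a, Dnmt3b and Dnmt3l write new methylation. Many imprinted genes act on fetal growth, placenta or brain, and in cultured stem cells the marks and the dosage of these genes are known to be unstable. The counts hold no information on the parental copy, so every value below is the sum of both copies, and the allele given for a gene is background.

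The 6 libraries held between 19574969 and 23133148 estimated counts. The cells had the transcripts of pluripotent cells at both times: Pou5f1 stood at 1111 ± 1.99 CPM (counts scaled to a library total of 1000000; mean ± SD, n = 3) at 24 h and 1058 ± 15.2 at 48 h, and Nanog at 694.7 ± 24.6 and 174.4 ± 6.47. Of the 6 markers 3 were lower at 48 h (these and Sox2) and 3 higher (Lin28a, Utf1 and Sall4, with log2 fold changes of 1.55, 0.60 and 0.22). Markers of fibroblasts, which serve as feeder cells and are rich in some imprinted RNAs, were near 0: the 8 genes summed to between 4.46 and 6.31 CPM in a library, with Postn and Lum at 0 counts in all 6. Inside this sum Col1a1 fell from 1.03 to 0.304 CPM and Twist1 rose from 2.13 to 3.52. Dcn, a fibroblast gene described further below that was higher at 48 h, was not among the 8. The 7 markers of extra-embryonic endoderm summed to 8.21 to 9.87 CPM at 24 h and 5.35 to 5.66 at 48 h, and the 6 of trophoblast to 7.28 to 7.84 and 2.17 to 2.39. The 6 neural markers summed to 127.1 to 136.6 CPM at 24 h and 144.1 to 156.1 at 48 h, with movement both ways inside the sum. The regulators Sox1 and Pax6 rose from 14.7 to 36.6 and from 11.6 to 33.9 CPM (log2 fold changes 1.31 and 1.56), and Tubb3 fell from 78.2 to 54.3 and Nes from 26.9 to 23.6. The call of Nes (-0.19, adjusted p = 0.0157 in edgeR's test) was lost in the test of DESeq2 (adjusted p = 0.0554). It was also lost in edgeR's test without replicate 2 or 3 of 48 h (adjusted p = 0.0949 and 0.0652). The part of these cell type markers in the results was not tested. In such bulk libraries fewer cells that express a gene and less RNA per cell cannot be told apart.

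Promoter sequences are shown first for 4 members that carry main changes described below, 1 window each, from 250 bases before to 50 bases after a transcript start (RefSeq, GRCm38.p6). Capitals mark the 6-base core TGCCGC of the sites that ZFP57 binds when methylated, searched on both strands, where it reads GCGGCA on the printed strand. For Snrpn, with 4 windows in the table, and Meg3, with 2, the printed window is the only one that holds the core and was picked for it. The window of Peg3 holds no such core and shares 263 bases with that of Usp29, which starts on the opposite strand.
Meg3, chr12:109540746-109541045, plus strand: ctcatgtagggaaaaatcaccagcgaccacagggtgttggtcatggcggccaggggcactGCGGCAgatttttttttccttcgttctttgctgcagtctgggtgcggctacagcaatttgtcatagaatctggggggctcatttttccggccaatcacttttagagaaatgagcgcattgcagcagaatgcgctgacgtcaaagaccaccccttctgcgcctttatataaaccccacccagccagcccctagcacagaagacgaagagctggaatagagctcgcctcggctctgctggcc
Peg3, chr7:6730370-6730669, minus strand: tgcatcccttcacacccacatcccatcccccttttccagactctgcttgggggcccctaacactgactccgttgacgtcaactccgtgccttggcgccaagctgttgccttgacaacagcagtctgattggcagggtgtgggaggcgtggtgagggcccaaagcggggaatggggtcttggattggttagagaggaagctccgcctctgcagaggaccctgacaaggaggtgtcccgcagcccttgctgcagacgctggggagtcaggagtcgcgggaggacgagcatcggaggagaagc
Snrpn, chr7:60005150-60005449, minus strand: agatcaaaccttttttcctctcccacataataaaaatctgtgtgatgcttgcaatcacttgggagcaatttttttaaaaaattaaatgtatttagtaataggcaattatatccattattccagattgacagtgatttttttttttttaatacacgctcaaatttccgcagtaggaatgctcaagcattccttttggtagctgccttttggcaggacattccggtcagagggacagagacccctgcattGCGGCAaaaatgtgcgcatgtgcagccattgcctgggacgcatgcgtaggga
Plagl1, chr10:13090582-13090881, plus strand: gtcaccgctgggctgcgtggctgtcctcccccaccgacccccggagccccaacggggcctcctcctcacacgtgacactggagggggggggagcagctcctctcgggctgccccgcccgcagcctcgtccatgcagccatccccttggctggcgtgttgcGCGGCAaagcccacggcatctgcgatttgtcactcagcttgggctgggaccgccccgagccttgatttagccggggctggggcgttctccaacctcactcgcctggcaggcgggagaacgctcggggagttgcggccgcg

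Of the 47 members, 37 had at least 1 window in the promoter table, 56 windows in all, and 12 of these 37 genes held the core in a window, where 13.1% of all genes in the table did. By window the share was 23.2% (13 of 56), against 11.6% of all 32851 windows, but windows of 1 gene can overlap, and the member windows also held more CpG pairs (a median of 13.5 against 7). The core was present in 6 of the 17 members with a window that rose, 2 of the 6 that fell and 4 of the 11 that did not pass the test. A match is a string of letters and not evidence of binding, and methylation was not measured.

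Of the 47 imprinted genes, 41 had enough counts to be tested, and 29 changed between 24 h and 48 h (22 upward and 7 downward; quasi-likelihood test of edgeR, adjusted p below 0.05). That is 70.7% of the tested members, against 62.8% of all 14889 genes tested. Upward calls made up 53.7% of the tested members against 30.9% of all genes, and downward calls 17.1% against 31.9%. At least 2-fold changes were called for 12 members, 9 higher and 3 lower, where 11.2% of all genes passed both limits. The values of the times did not overlap for 31 of the 41 (66.9% of all genes). The median log2 fold change of the tested members was 0.25 and that of all genes -0.01. Summed over the 47 genes, the level was between 2221 and 2260 CPM in the 24 h libraries and between 3125 and 3146 CPM in the 48 h libraries.

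The filter on low counts kept 5 members that did not reach its level in every library (0.449 CPM on unscaled library totals, whereas the CPM printed here use TMM-scaled totals). H19 was under it in all 3 libraries of 24 h and so passed only through the time at which it was high. Dio3, Slc22a18, Ascl2 and Osbpl5 were under it in 1 library each. Of the 36 members that reached it in every library, 26 changed (72.2%), where 64.7% of all such genes did. Counting only members with whole-number counts left 25 changed of 37 tested (67.6%), and only those whose exons overlap no annotated gene on the opposite strand left 16 of 26 (61.5%), near the share of all genes. The 6 members with too few counts were Kcnq1, a potassium channel gene, Asb4, Rasgrf1, Rtl1 and the non-coding RNAs Airn and Peg13. Airn, Rasgrf1, Rtl1 and Peg13 had at most 3 counts in a library, and Kcnq1 and Asb4 at most 9.

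**Figure D1:**
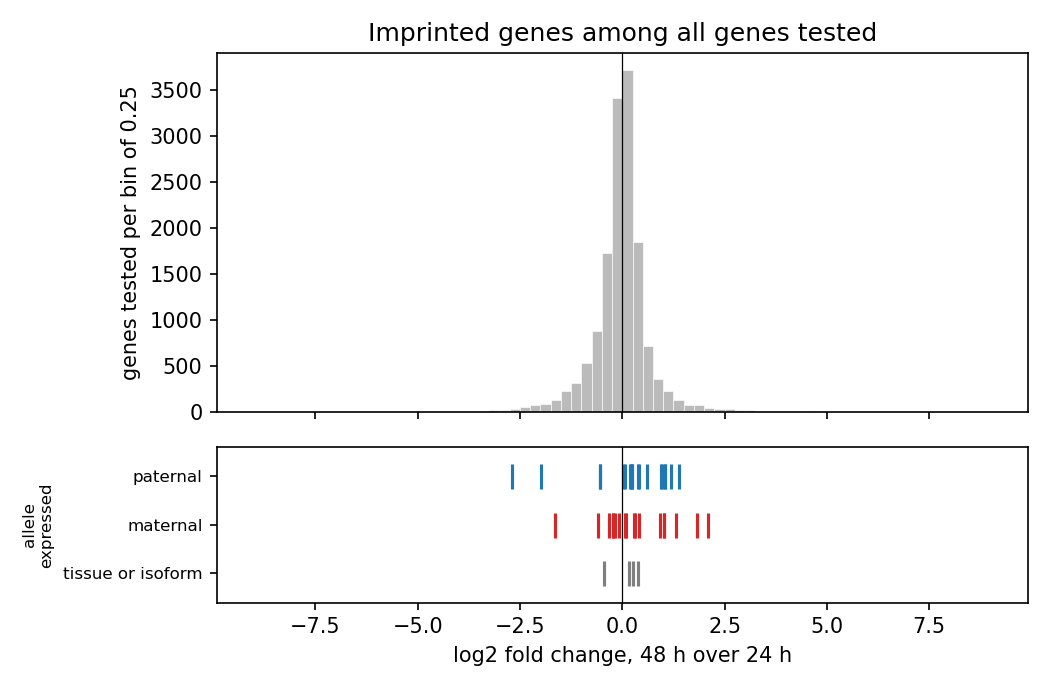
Log2 fold changes (48 h over 24 h) of the 14889 genes tested, as a histogram of genes per bin of 0.25 (upper panel), and of the 41 tested imprinted genes, 1 tick each, by the allele known to be expressed (lower panel). The ticks of both parental groups lie on both sides of 0.

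Grouped by the allele known to be expressed, both parental groups held genes that rose and genes that fell. Of 23 paternally expressed members 19 were tested, of which 9 rose and 3 fell (median log2 fold change 0.25). Of 20 maternally expressed members 18 were tested, of which 10 rose and 3 fell (median 0.18). Changed genes made up 63.2% of the tested paternal members and 72.2% of the maternal ones, beside 62.8% of all genes. Upward calls made up 47.4% and 55.6%, beside 30.9% of all genes, and downward calls 15.8% and 16.7%, beside 31.9%. The difference between the parental groups was not tested. Both medians rested on single libraries: the paternal median was 0.39 without replicate 1 of 24 h. The maternal median was 0.0688 when replicate 2 of 24 h was left out and 0.085 when replicate 3 of 48 h was. The 4 members set apart here because their allele depends on tissue or transcript were Grb10, Ddc, Gnas and Inpp5f. All 4 changed (100%, beside 62.8% of all genes), 3 upward and Ddc downward. Other members may also be imprinted in some tissues only: Ube3a, counted here as maternal, is maternally expressed in neurons. Which copy these cells used was not measured.

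**Figure D2:**
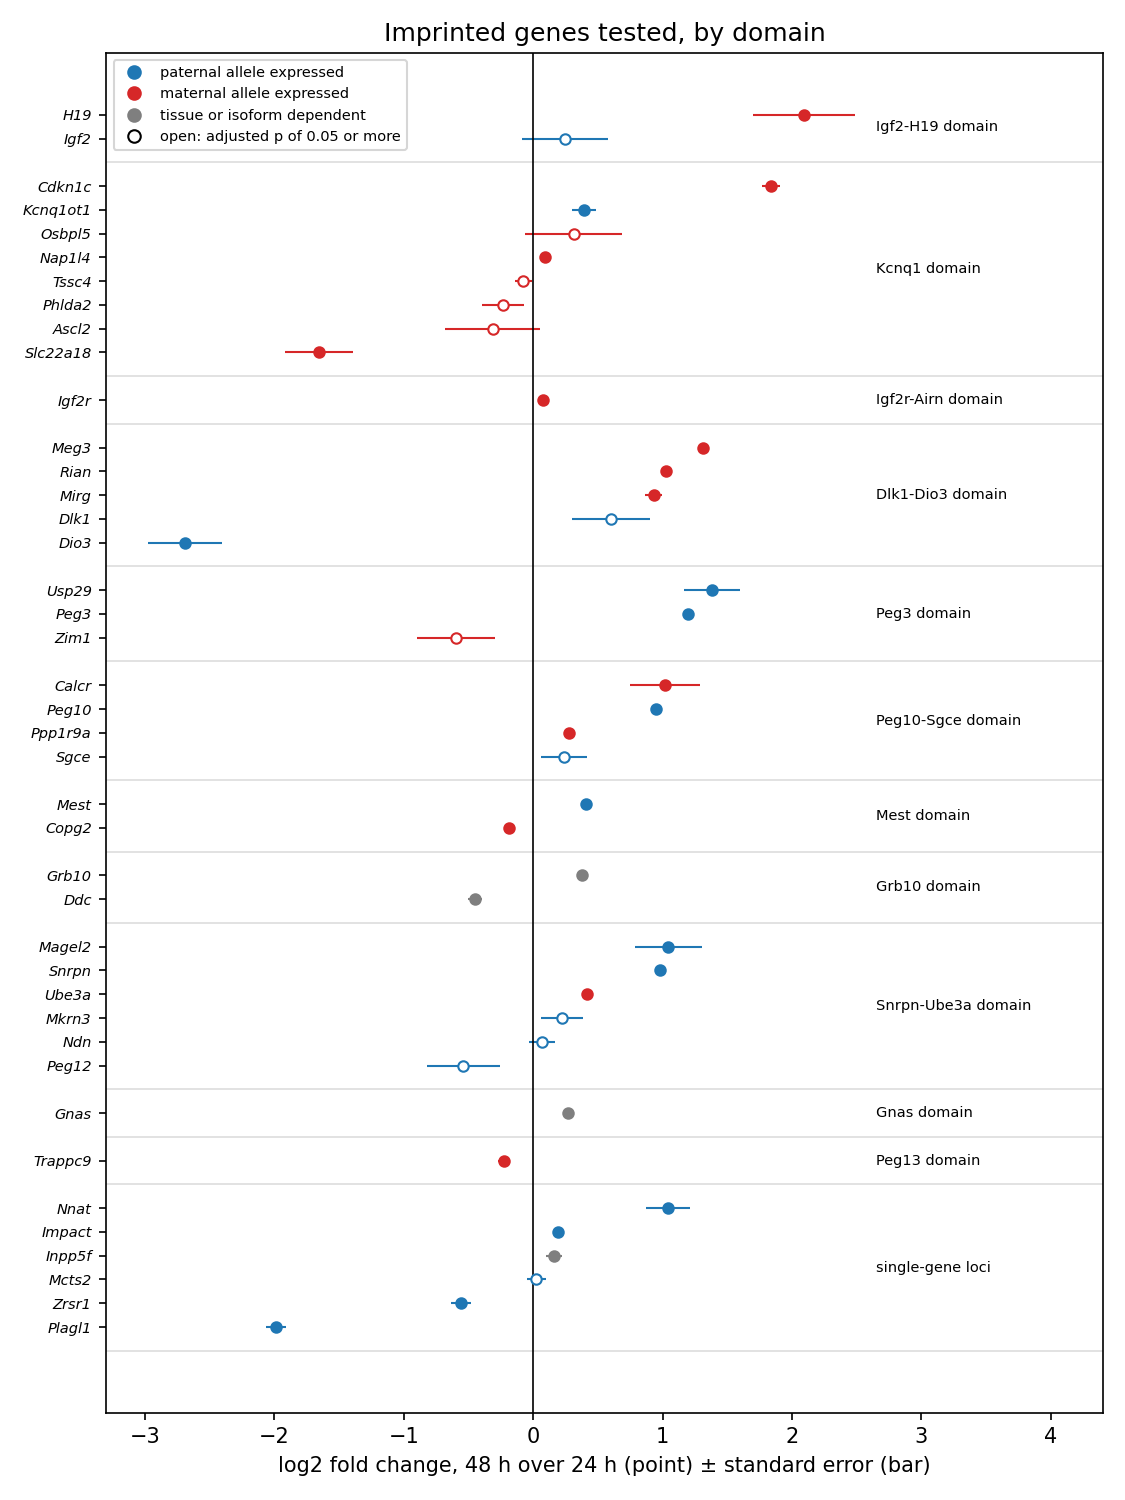
Log2 fold change (48 h over 24 h; point) with its standard error (bar) for the 41 tested imprinted genes, arranged by domain and coloured by the allele known to be expressed; open points had an adjusted p of 0.05 or more. The maternally expressed Meg3, Rian and Mirg lie together near 1, and Dio3, at -2.69, lies farthest below 0.

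The Dlk1-Dio3 domain on chromosome 12 held Rian, the member with the highest CPM at 48 h (at 24 h Grb10 was higher). In this domain 4 of the 5 tested genes changed (80%, beside 62.8% of all genes tested). Its maternal copy makes the long non-coding RNAs Meg3, Rian and Mirg, which carry small nucleolar RNAs and a large microRNA cluster, and its paternal copy makes Dlk1, a Notch-related membrane protein, Rtl1, a retrotransposon-derived gene needed in the placenta, and Dio3, an enzyme that inactivates thyroid hormone. Rian (ENSMUSG00000097451, chr12:109603940-109661716) stood at 237, 239 and 227 CPM in the 24 h libraries and at 471, 480.2 and 478 in the 48 h libraries. Meg3 (ENSMUSG00000021268, chr12:109541001-109571726) stood at 73.2, 73.6 and 70.01 CPM at 24 h and 183, 182 and 174 at 48 h. Mirg (ENSMUSG00000097391, chr12:109729764-109749460) rose from 12.01 ± 0.39 to 22.9 ± 1.01 CPM (SD, n = 3). All 3 RNAs were higher in every 48 h library than in any 24 h library, with log2 fold changes of 1.32 ± 0.03 (standard error; adjusted p = 1.43e-15) for Meg3, 1.02 ± 0.02 (3.88e-16) for Rian and 0.93 ± 0.07 (4.01e-09) for Mirg. Meg3 and Rian had fractional counts, which mark reads divided between genes, and small RNA genes lie within their exons. The exons of Meg3 also overlap 1228 bases of Gm26906 on the opposite strand.

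The spans of these 3 host genes hold 19 microRNA genes of the RefSeq table (14 in Mirg, 3 in Rian and 2 in Meg3). Of the other changed members, Calcr holds 2, and H19, Mest and Usp29 hold 1 each. Mature microRNAs are not measured by these mRNA libraries. Some of their sequences are given as lying within the spans of changed host genes, introns included, with the seed (bases 2 to 8) in capitals. A microRNA in an intron need not be part of the RNA that was counted. Among the 49 mature microRNAs inside 9 members on the same strand there were 48 different seeds, and the single shared seed was that of miR-453 and miR-496a-5p, both from Mirg.
miR-770-5p, in Meg3: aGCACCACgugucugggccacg
miR-370-3p, in Rian: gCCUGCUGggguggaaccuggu
miR-134-5p, in Mirg: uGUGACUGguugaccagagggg
miR-410-3p, in Mirg: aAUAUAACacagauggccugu
miR-453, in Mirg: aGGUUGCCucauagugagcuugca
miR-496a-5p, in Mirg: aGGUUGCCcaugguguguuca
miR-675-5p, in H19: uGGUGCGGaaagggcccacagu
miR-335-5p, in Mest: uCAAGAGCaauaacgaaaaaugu

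The paternally expressed genes of the same domain were low. Dio3 (ENSMUSG00000075707, chr12:110279068-110281097), a gene of a single exon at the far end of the domain, had 2.95, 2.78 and 2.63 CPM at 24 h and 0.506, 0.183 and 0.586 at 48 h. It was lower in all 48 h libraries and had the largest fitted change of any tested member, a log2 fold change of -2.69 ± 0.29 (adjusted p = 4.51e-07), resting on between 4 and 13 counts in each 48 h library. Dlk1 was at 0.551, 0.635 and 0.72 CPM at 24 h and 1.06, 1.10 and 0.767 at 48 h. These values did not overlap, but the gene did not pass the test (0.60 ± 0.30, adjusted p = 0.0938). The log2 ratio of Meg3 to Dlk1 was 6.64 ± 0.20 at 24 h and 7.41 ± 0.22 at 48 h (SD, n = 3).

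In the Peg3 domain on chromosome 7 both paternally expressed genes rose. They were the 2 changed genes of 3 tested, which is 66.7%, beside 62.8% of all genes changed and 30.9% higher. Peg3 (ENSMUSG00000002265, chr7:6703892-6730431), a zinc finger gene that acts in growth and maternal behaviour, had 81.7, 82.2 and 81.8 CPM at 24 h and 186, 186 and 192 at 48 h, a log2 fold change of 1.20 ± 0.03 (adjusted p = 6.57e-16). Usp29 (ENSMUSG00000051527), a ubiquitin-specific protease gene, starts from the shared promoter shown above. It stood at 2.05, 1.32 and 1.02 CPM at 24 h and 4.10, 3.15 and 4.06 at 48 h (1.38 ± 0.22, adjusted p = 3.63e-05). Part of its exons overlap those of Zim3 on the opposite strand, and the use of strand in counting is not given in the sources used here. Zim1, the maternally expressed zinc finger gene next to Peg3, was at 1.05 ± 0.26 CPM at 24 h and 0.699 ± 0.109 at 48 h. It did not pass the test (-0.59 ± 0.30, adjusted p = 0.0985) and was called in 1 alternative, the fit without replicate 1 of 24 h (-0.78, adjusted p = 0.0481). Over its 14 alternatives the adjusted p lay between 0.0481 and 0.258.

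The Peg10-Sgce domain on chromosome 6 had 3 changed genes of 4 tested, all upward. That is 75%, beside 62.8% of all genes changed and 30.9% higher. Peg10 (ENSMUSG00000092035, chr6:4747306-4760517), derived from a retrotransposon and needed for the placenta, had 73.9, 74.3 and 74.1 CPM at 24 h and 139, 149 and 142 at 48 h. This was a log2 fold change of 0.95 ± 0.03 (adjusted p = 9.95e-14), with no overlap. Sgce, which encodes epsilon-sarcoglycan and starts beside Peg10 on the other strand, is also read from the paternal copy. It stood at 2.86 ± 0.52 and 3.36 ± 0.66 CPM and did not pass the test (0.24 ± 0.18, adjusted p = 0.255). Calcr (ENSMUSG00000023964), the calcitonin receptor gene, had 0.601, 0.83 and 0.72 CPM at 24 h and 1.20, 1.60 and 1.58 at 48 h (1.02 ± 0.27, adjusted p = 0.00366). Ppp1r9a, which encodes neurabin, an actin-binding protein, rose by 0.28.

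The Snrpn-Ube3a domain, the mouse counterpart of the Prader-Willi and Angelman region, had 3 changed genes of 6 tested, all upward. That is 50%, beside 62.8% of all genes changed and 30.9% higher. Snrpn (ENSMUSG00000102252, chr7:59982495-60140219), a component of small nuclear ribonucleoproteins read from the paternal copy, stood at 89.7 ± 3.68 CPM at 24 h and 176.3 ± 0.56 at 48 h, and its log2 fold change was 0.98 ± 0.03 (adjusted p = 3.98e-14). Its counts were fractional, and its exons overlap those of Snurf and Gm38393 on the same strand. Which genes shared its reads was not tested. Magel2 (ENSMUSG00000056972), a regulator of ubiquitin ligases, had 0.651, 0.732 and 0.975 CPM at 24 h and 1.47, 1.65 and 1.80 at 48 h (1.04 ± 0.26, adjusted p = 0.00214). Ube3a, a ubiquitin ligase gene that is maternally expressed in neurons, rose from 200.1 ± 2.93 to 266.6 ± 4.31 CPM (0.41 ± 0.02, adjusted p = 4.88e-11), and its exons overlap the antisense RNA Snhg14. The other single-exon genes of this domain did not pass the test: Ndn was at 9.21 ± 1.06 and 9.69 ± 0.95 CPM, Mkrn3 at 3.55 ± 0.31 and 4.14 ± 1.02, and Peg12 at 1.49 ± 0.45 and 1.02 ± 0.24. The paternally expressed members of this domain had log2 fold changes from -0.54 (Peg12) to 1.04 (Magel2).

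**Figure D3:**
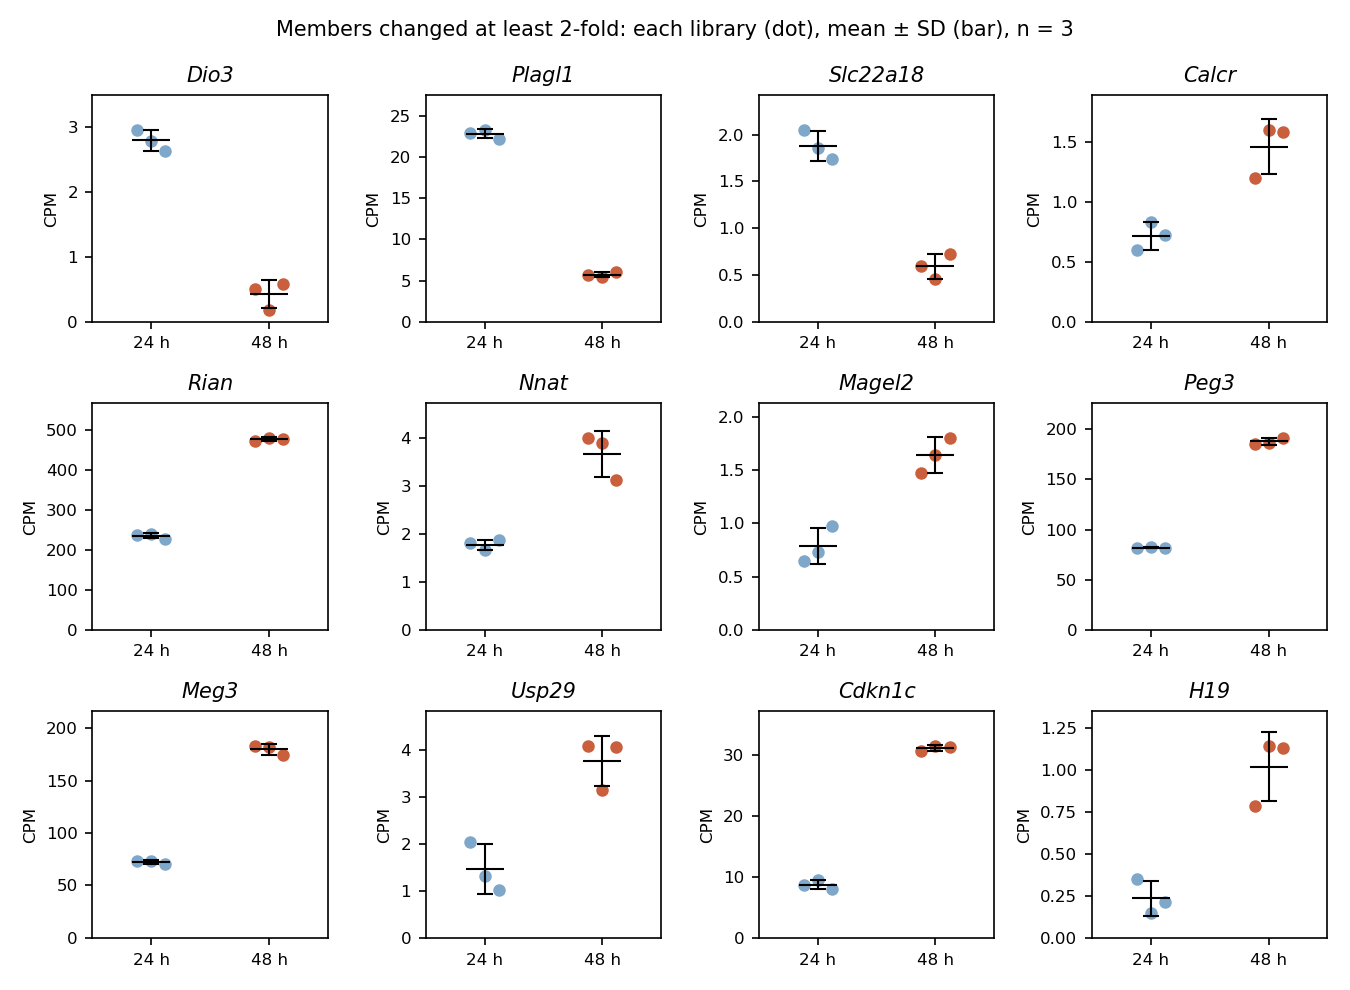
Level in CPM (vertical axes, from 0) of the 12 imprinted genes called with at least a 2-fold change, in each library at 24 h and 48 h (dots; horizontal bars with whiskers are mean ± SD, n = 3 at each time). In each panel the values of the times do not overlap. Dio3, Plagl1 and Slc22a18 are lower at 48 h and the other 9 are higher. H19, among these 9, was under the level of the count filter in all 3 libraries of 24 h.

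On distal chromosome 7 lie 2 neighbouring domains, Igf2-H19 and Kcnq1. Igf2, the fetal growth factor gene read from the paternal copy, had between 11 and 22 counts in a library. Its annotated exons share 3596 of 5723 bases with Gm49394 on the same strand, and its counts were whole numbers. How reads from the shared bases of Igf2 were assigned was not tested. It stood at 0.751, 0.537 and 0.636 CPM at 24 h and 1.01, 0.64 and 0.631 at 48 h, overlapping values that did not pass the test (0.25 ± 0.33, adjusted p = 0.54). H19 (ENSMUSG00000000031, chr7:142575529-142578143), its maternally expressed non-coding neighbour, had 7, 3 and 5 counts at 24 h and 17, 25 and 25 at 48 h. That was 0.350, 0.146 and 0.212 CPM against 0.782, 1.14 and 1.13, a log2 fold change of 2.09 ± 0.39 (adjusted p = 0.000217). H19 was under the level of the count filter in all 3 libraries of 24 h. It was thus tested only through the time at which it was high, which limits what its p-value can show. Both RNAs of this pair, which are among the most abundant of the fetus, thus stayed near or under 1 CPM.

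The Kcnq1 domain had 4 changed genes of 8 tested (50%, beside 62.8% of all genes), and its 2 large changes were in opposite directions. Cdkn1c (ENSMUSG00000037664, chr7:143458339-143461050), the maternally expressed cell cycle inhibitor p57, had 8.71, 9.57 and 8.01 CPM at 24 h and 30.7, 31.6 and 31.3 at 48 h, a log2 fold change of 1.84 ± 0.07 (adjusted p = 7.72e-13). Its exons overlap 625 bases of Gm44732 on the opposite strand. Slc22a18 (ENSMUSG00000000154, chr7:143473736-143499334), a transporter gene that lies next to it, had 2.05, 1.86 and 1.74 CPM at 24 h and 0.598, 0.457 and 0.722 at 48 h (-1.65 ± 0.26, adjusted p = 4.14e-05). Phlda2, a placental growth inhibitor gene beside Slc22a18, had values of 2.46 to 2.93 CPM at 24 h and 2.26 to 2.44 at 48 h, which did not pass the test (-0.23 ± 0.16, adjusted p = 0.222). Kcnq1ot1, the paternal non-coding RNA that silences these genes on its own copy, rose from 12.2 ± 1.70 to 16.01 ± 0.88 CPM (0.39 ± 0.09, adjusted p = 0.00164). So Kcnq1ot1 and Cdkn1c, which are read from opposite copies, were both higher at 48 h. Of the genes at the edges of the domain, Nap1l4, a histone chaperone gene, changed by 0.09 (adjusted p = 0.00686), a call that was lost with library size as the only scaling (0.03, adjusted p = 0.336). Tssc4, Osbpl5 and Ascl2, a trophoblast transcription factor gene, did not pass the test, with log2 fold changes of -0.08, 0.31 and -0.31.

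For 5 pairs of neighbours that are read from opposite copies, the log2 ratio was computed in each library. It moved from -1.20 ± 0.24 to 0.39 ± 0.63 (SD, n = 3) for H19 to Igf2, from 0.47 ± 0.08 to -0.96 ± 0.07 for Kcnq1ot1 to Cdkn1c, from -6.19 ± 0.36 to -7.90 ± 0.18 for Zim1 to Peg3, and from -0.55 ± 0.03 to -1.15 ± 0.01 for Copg2 to Mest. With the pair of Meg3 and Dlk1, none of the 5 ratios overlapped between the times. For H19 to Igf2 the lack of overlap can show little, since H19 passed the count filter only through 48 h, the time at which it was high. Taken singly, 66.9% of all genes tested did not overlap either, and no such share was computed for ratios. Some pairs rest on few counts in a library: 3 to 25 for H19, 11 to 22 for Igf2, 13 to 28 for Zim1 and 11 to 24 for Dlk1. The two-sided exact permutation test gave p = 0.1 for each ratio, adjusted p = 0.1 over the 5 pairs. This is the lowest p possible with 3 libraries at each time. The pair of Airn and Igf2r had too few Airn counts.

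The Mest domain held a high paternally expressed gene and a maternally expressed neighbour whose exons overlap on opposite strands. Mest, a gene of the alpha/beta hydrolase family tied to growth, had 191 to 197 CPM at 24 h and 254 to 259 at 48 h (0.41 ± 0.02, adjusted p = 4.3e-11). Copg2, a coat protein gene of vesicle transport, had 128 to 134 CPM at 24 h and 114 to 117 at 48 h (-0.18 ± 0.03, adjusted p = 2.07e-05). A Mest promoter window with the core sequence, which the first of its 3 windows lacks, is as follows, on the plus strand of chr6:30737800-30738099.
Mest: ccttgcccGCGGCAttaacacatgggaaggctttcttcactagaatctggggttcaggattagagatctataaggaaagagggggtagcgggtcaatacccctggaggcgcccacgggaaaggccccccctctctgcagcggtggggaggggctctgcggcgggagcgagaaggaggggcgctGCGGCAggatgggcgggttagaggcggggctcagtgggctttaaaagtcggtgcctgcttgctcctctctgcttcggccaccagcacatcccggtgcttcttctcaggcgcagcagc

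Among the genes that stand alone, Plagl1 (ENSMUSG00000019817, chr10:13060504-13131694), a zinc finger transcription factor read from the paternal copy, fell most. Its values were 22.9, 23.3 and 22.2 CPM at 24 h and 5.71, 5.48 and 5.999 at 48 h, a log2 fold change of -1.99 ± 0.08 (adjusted p = 1.24e-12). Nnat (ENSMUSG00000067786), the neuronatin gene, had 1.80, 1.66 and 1.86 CPM at 24 h and 4.004, 3.89 and 3.11 at 48 h (1.04 ± 0.17, adjusted p = 4.66e-05). Impact, a regulator of translation through GCN2, rose by 0.19 (adjusted p = 4.52e-06). Inpp5f, an inositol phosphatase gene of which only some transcripts are imprinted, had a log2 fold change of 0.16 (adjusted p = 0.0382) that was lost in 7 of its 14 alternatives (adjusted p up to 0.186).

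Some members are retrogenes or relatives of genes elsewhere, and each is given beside that relative. Zrsr1, a splicing factor retrogene, fell from 19.7 ± 1.92 to 13.4 ± 0.57 CPM (-0.56 ± 0.08, adjusted p = 1.22e-05), while its X-linked relative Zrsr2 had a log2 fold change of 0.04 (adjusted p = 0.387). Mcts2, a retrogene, stood at 16.3 ± 1.23 and 16.6 ± 1.01 CPM (0.03 ± 0.08, adjusted p = 0.792), and its relative Mcts1 rose by 0.26 (adjusted p = 0.00187). Snrpb, the relative of Snrpn, rose by 0.15 where Snrpn rose by 0.98. The differences within these pairs were not tested. Zrsr1, Zrsr2, Mcts1, Mcts2 and Snrpb had whole-number counts, so no reads of theirs were seen to be divided.

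Of the remaining domains, Grb10, an adaptor that dampens insulin and IGF signalling, rose from 262.1 ± 9.26 to 339.8 ± 4.02 CPM (0.37 ± 0.02, adjusted p = 6.48e-10), while its neighbour Ddc, the DOPA decarboxylase gene, fell from 34.2 ± 2.44 to 25.1 ± 0.63 (-0.45 ± 0.06, adjusted p = 2.42e-06). Gnas, which encodes the stimulatory G protein subunit and several imprinted transcripts that this gene-level count cannot separate, rose by 0.27 (adjusted p = 1.58e-08). Trappc9, a gene of vesicle traffic, fell by 0.23 (adjusted p = 0.000217). Igf2r, the receptor that removes IGF2, had 119 to 124 CPM at 24 h and 126 to 132 at 48 h. Its call (0.08 ± 0.03, adjusted p = 0.0317) was lost with library size as the only scaling (0.01, adjusted p = 0.678) and in 4 other alternatives.

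Levels were also set per exon length, in units like TPM (transcripts scaled to the same total in each library), computed from counts and the union of annotated exons. At 24 h the highest members were Mest (153 ± 2.38; SD, n = 3), Nap1l4 (145.7 ± 3.48) and Snrpn (129.8 ± 5.38). At 48 h Snrpn led with 252 ± 2.17, followed by Mest (200.9 ± 1.99), Nap1l4 (153.3 ± 2.30) and Grb10 (115.4 ± 1.37). Rian, first by CPM at 48 h, reached 80.6 ± 0.84 per length at 48 h, and Kcnq1ot1, annotated as 1 exon of 93092 bases, reached 0.531 ± 0.031. Mest and Nap1l4 at 24 h differed by more than their SDs. Igf2, H19 and Dlk1 were at or under 1.28 at both times on this scale.

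**Figure D4:**
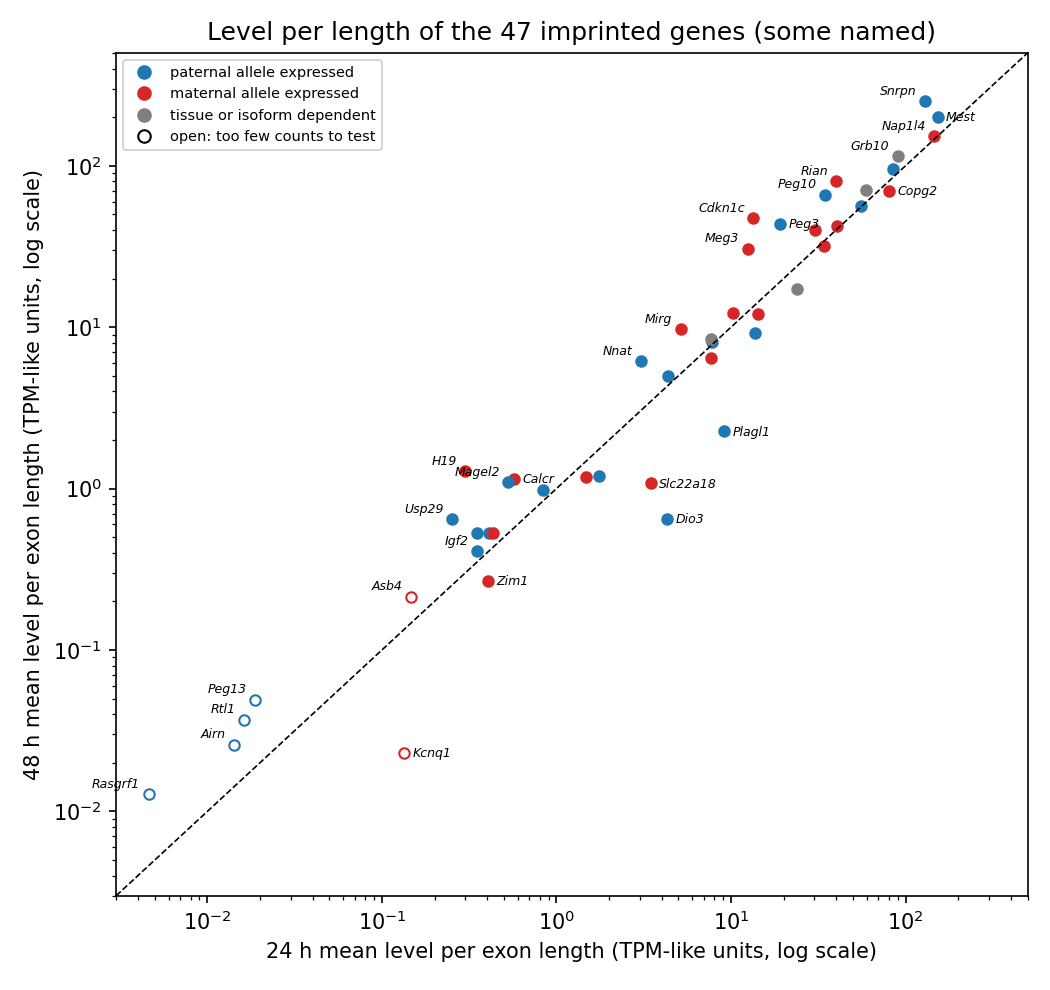
Mean level per exon length (TPM-like units from exon-union lengths; both axes log scale) of the 47 imprinted genes at 24 h and 48 h; the dashed line marks equal levels, colours give the allele known to be expressed, and open points had too few counts to test. Snrpn, Mest and Nap1l4 stand at the upper end, and Dio3, Plagl1 and Slc22a18 lie farthest under the line among tested genes.

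Genes that keep imprints were compared in the same way. Of 14 genes named for imprint maintenance, all were tested, with 11 higher (78.6%, beside 30.9% of all genes) and 2 lower (14.3%, beside 31.9%) at 48 h and a median log2 fold change of 0.23. The fall was largest for Zfp57, the zinc finger protein that binds imprinting control regions, from 484.7 ± 9.93 to 314.2 ± 0.92 CPM (-0.63 ± 0.02). Setdb1, the histone methyltransferase of the same complex, fell by 0.30, while Trim28 and Zfp445 rose by 0.23 and 0.30. Hells, a chromatin remodeller needed for DNA methylation, rose by 0.83. Dnmt1 and its partner Uhrf1 had log2 fold changes of 0.10 and 0.06, and both calls were lost with library size as the only scaling (0.04 and 0.005, adjusted p = 0.0536 and 0.832). The same held for Ehmt2, a histone methyltransferase gene (0.08, and 0.02 with adjusted p = 0.542), which also lost its call in 4 of the fits without 1 library. Dppa3, which protects imprints in the zygote, was low, at 2.40 ± 0.47 and 3.68 ± 0.27 CPM.

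Of 7 genes that write or remove methylation, 6 rose (85.7%, beside 30.9% of all genes) and Tet2 fell (-0.97). The change was 3.35 for Dnmt3b, 2.02 for Dnmt3a and 1.11 for Dnmt3l on the log2 scale, and 0.43 for Tet1, a dioxygenase that oxidises methylated cytosine.

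**Figure D5:**
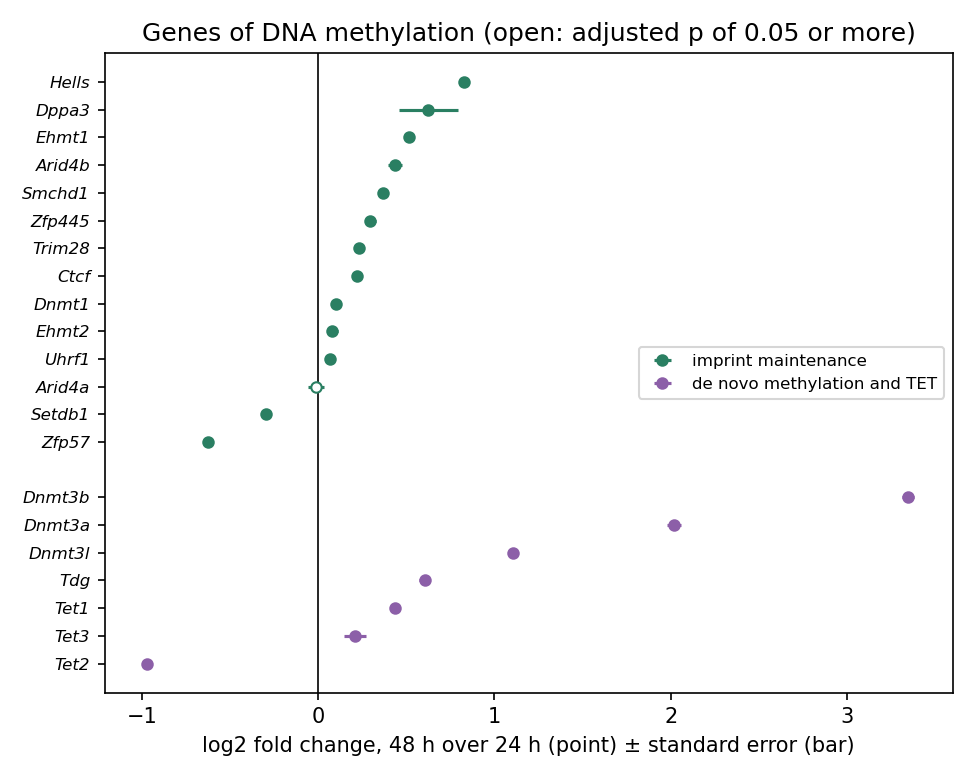
Log2 fold change (48 h over 24 h; point) with its standard error (bar) for 14 genes of imprint maintenance and 7 genes that write or remove DNA methylation; the open point had an adjusted p of 0.05 or more. Zfp57 and Setdb1 lie below 0, and Dnmt3b, at 3.35, lies farthest above.

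A list of 27 further imprinted genes gave 19 that could be tested, of which 9 were higher and 5 lower at 48 h (median 0.05). These are 47.4% and 26.3% of the tested genes, beside 30.9% and 31.9% of all genes. The call of Blcap (-0.19, adjusted p = 0.046), among the 5, was lost in 8 alternatives, with adjusted p up to 0.226. Atp10a, a phospholipid flippase gene next to Ube3a, rose from 3.34 ± 0.44 to 11.5 ± 0.81 CPM (1.78 ± 0.11). Slc38a4, an amino acid transporter, and Zdbf2 rose by 0.55 and 0.50, and Jade1 and Gab1 by 0.39 and 0.32. Sfmbt2, a Polycomb-related gene, fell by 0.74, and Pon3 by 1.48, the latter from 1.71 ± 0.18 to 0.609 ± 0.273 CPM, with 1 library of 48 h under the level of the count filter. Dcn, a fibroblast proteoglycan gene imprinted in the placenta, had 0 counts in each of the 24 h libraries and 23, 25 and 32 at 48 h. It is among the 9 higher genes and passed the count filter only through 48 h, the time at which it was high. Against a floor of 3 counts over the 24 h group it was at least 25.9-fold higher at 48 h.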

How the data were processed

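The authors deposited 1 table of estimated counts per gene from RSEM, with 1 column for each of the 6 samples and no scaling for depth or length. The submitters' processing notes list cutadapt 1.9.1, STAR 2.5.2, RSEM 1.3.0 and the build GRCm38. Which annotation was used, and whether counting used strand, is not given in the sources used here. Estimated counts can be fractional where reads were divided between genes. The library kit was the KAPA mRNA HyperPrep, per the labels' protocols.

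Symbols and positions came from GENCODE M21 (GRCm38), which named 51633 of 51912 identifiers. Counts were rounded, filtered with filterByExpr (minimum count 10), scaled by TMM and tested across all 14889 genes with edgeR 4.0.16 (R 4.3.3; glmQLFit, glmQLFTest) with time as the only term. Adjustment was by Benjamini-Hochberg across those genes, with 0.05 as the threshold for a changed gene. Standard errors are the log2 fold change divided by the square root of F. CPM values use TMM-scaled totals. Ratios were taken between log2 CPM values, after adding a prior count (2). Alternatives were RLE scaling, library size only, other count filters, DESeq2 1.42.0, limma voom (limma 3.58.1), unrounded counts, a replicate block, a threshold of 0.01 and leaving out each library.

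The members and lists were chosen with earlier results of these data known. The promoter motif, the only one searched, the sequences printed, the subsets by filter, fraction and strand overlap, and the alternatives for list genes were chosen after the values were seen. Domains and parental alleles are general knowledge. All 47 members may be named, those changed at least 2-fold with their value in every library, and genes of the lists; no other gene was named by its values.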

Additional observations from a re-analysis of the deposited data

How the results depend on the processing

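The count of 29 changed members ranged from 26, with library size as the only scaling, to 29, and stayed within 1.5 times, as did its 22 higher and 7 lower genes and the 9345 changed genes of the whole table. Leaving out 1 library gave from 27 to 29 changed members. The replicate block also called 29 members, the same 29 as without it. Libraries with the same number deviated with correlations of -0.05, -0.04 and -0.01, so no pairing by number was seen. These values cannot show whether libraries with the same number shared a culture. Among list genes the block ended the call of Blcap (-0.19, adjusted p = 0.0583), which 7 other alternatives ended too. The median of the paternally expressed members became 0.41 with no filter on low counts, and lay between 0.24 and 0.39 with 1 library left out. That of the maternally expressed members became 0.0891 with at least 10 counts in every library, and lay between 0.0688 and 0.19 with 1 library left out.

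Of the single-member values, 549 kept direction and call, 13 lost the call (Nap1l4, Igf2r and Inpp5f), 1 gained it (Zim1) and 7 changed sign, all in members that were not called. With library size as the only scaling Mcts2 went to -0.0352, and among list genes Commd1 went to -0.00952, Zrsr2 to -0.0217 and Igf2bp2 to -0.0135. This scaling moved the median of all genes from -0.01 to -0.07. With 1 library left out, the log2 fold change ranged from -0.00853 to 0.37 for Igf2, from -0.0376 to 0.57 for Osbpl5, from -0.00325 to 0.17 for Ndn, from -0.0176 to 0.0893 for Mcts2, from -0.0669 to 0.015 for Arid4a and from -0.0297 to 0.25 for Irs1. Why these values shifted was not tested. Of the list genes' values 984 kept direction and call, 22 lost the call and 4 gained it. Few counts limit the precision of members such as H19, Igf2, Ascl2, Osbpl5, Dlk1 and Dio3, and 6 members could not be tested.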

Other observations

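Partners of the imprinted growth factor Igf2 were followed as a further list. Of 12 genes, all were tested, 3 rose and 4 fell, which is 58.3% changed beside 62.8% of all genes tested. Igfbp5, which binds IGFs outside the cell, had 6.05 ± 0.31 CPM at 24 h and 16.5 ± 0.50 at 48 h (SD, n = 3), a rise of 1.44 ± 0.08 on the log2 scale, and Igfbp2 rose by 0.51. Igf2bp1, which encodes an RNA-binding protein named for its binding to Igf2 RNA, rose by 0.44 to 888.6 ± 6.62 CPM, while Igf2 itself was at most 1.01 CPM in any library. Igf1 fell from 0.953 ± 0.296 to 0.288 ± 0.102 CPM (-1.69 ± 0.40), but it was under the level of the count filter in all 3 libraries of 48 h and so passed only through the time at which it was high, and the receptor gene Igf1r changed from 57.9 ± 1.28 to 52.5 ± 1.55 (-0.14). Igfbp4 (-0.70, adjusted p = 0.0297 in edgeR's test) lost its call in 4 alternatives, with adjusted p up to 0.138. Insr, Irs1, Irs2, Igfbp3 and Igf2bp2 did not pass the test.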
